A study of Mus musculus with 9 samples.

Results

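C-type lectin receptors and scavenger receptors are surface proteins by which macrophages bind microbes, dying cells and modified lipoproteins. The set described here was named by symbol and holds 10 genes, the C-type lectin receptors Clec4e, Clec4d, Clec4n and Clec7a and the scavenger or endocytic receptors Marco, Msr1, Mrc1, Cd163, Cd36 and Stab1. Of these, 9 were analysed among the 30406 genes shared by all libraries, and Clec7a was not analysed here. The rule goes by symbol and uses no measured value, but the genes were chosen with earlier results of these data known. The study had already reported Clec4e and Marco as strongly raised in Per1-/- macrophages on day 7.

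The study profiled single cells of cultures in which mouse embryonic fibroblasts (MEFs) were being turned into induced neurons. MEFs labelled WT, Per1-/- or Per2-/- had all been transduced with lentiviruses for neuronal reprogramming factors under control of doxycycline, and each genotype was sampled on days 4, 7 and 10, with 1 library for each genotype and day. The mutants carried the germline alleles Per1tm1Drw and Per2tm1Drw of 2 clock genes, and WT MEFs came from the breeding. MEFs came from pooled embryos, without head and heart, whose sex was not determined, so a genotype cannot be told apart from the embryos that gave it, and the macrophages measured were those that came along with the fibroblasts. Values are UMI counts, 1 UMI standing for 1 captured RNA molecule, and are given as CPM, the usual scaling of counts to the total of all UMI in the macrophage-like cells of a library. Intervals are 95% intervals for counting error only, since no genotype had a second library on the same day.

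The C-type lectin receptors Clec4e (Mincle), Clec4d (MCL) and Clec4n (Dectin-2) recognise glycolipids and mannans of microbes and signal through the adaptor FcRγ, the kinase Syk and CARD9 toward NF-kB. Their products work in pairs, and MCL is known to help Mincle reach the cell surface. Scavenger receptors differ in use, since Marco and Msr1 are class A receptors with a collagen-like stem that bind bacteria and modified lipoproteins, Cd36 takes up oxidised lipoprotein and fatty acids, and Mrc1 (the mannose receptor), Cd163 (the haemoglobin-haptoglobin receptor) and Stab1 (stabilin-1) are widely used as markers of resident-type or alternatively activated macrophages.

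Of 95603 barcodes, 74785 were kept as cells, and 6442 of these lay in 3 macrophage-like clusters, in which all 16 macrophage markers examined, such as Csf1r, Adgre1 and C1qa, were detected in every library. The macrophage-like sums held from 142 cells in WT on day 4 to 1391 cells in Per1-/- on day 7, and from 3728848 to 31647142 UMI. Fibroblast markers summed to 178 to 596 CPM in them and neuron markers to 14.1 to 134 CPM, both highest in Per2-/- on day 10. Pairs of libraries shared 11 to 38 barcode sequences. Some facts of the libraries touch the comparisons. Per1 UMI were not lower in the cultures labelled Per1-/- (9.12 CPM over all cells on day 4, against 6.33 CPM in WT), nor were Per2 UMI in those labelled Per2-/- (6.32 against 2.59 CPM), but a 3′ tag that lies outside the altered part of an allele does not check the label, so genotypes are those of the labels. By western blot, the study reported that MEFs of each mutant had lost the protein of the altered gene. Xist and Tsix, the X inactivation RNAs, summed to 574 CPM in macrophage-like cells of Per1-/- on day 4 but to 0.126 and 0.0653 CPM on days 7 and 10, where 4 Y-linked genes summed to 187 and 203 CPM against at most 80.6 CPM in any other library. The day 10 libraries were made with another Cell Ranger version and feature table, and most of their macrophages formed a cluster of their own, so day 10 and the processing cannot be told apart. In WT on day 10, 44.3% of kept cells, with a median of 4628 UMI, fell in clusters left unnamed.

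Clec4n, Clec4d and Clec4e lie side by side on chromosome 6, in the GRCm38 assembly with GENCODE M21 genes. Clec4n (ENSMUSG00000023349) spans chr6:123229843-123247021 on the plus strand, Clec4d (ENSMUSG00000030144) chr6:123262111-123275265 on the plus strand and Clec4e (ENSMUSG00000030142) chr6:123281789-123289870 on the minus strand. Gaps of 15089 and 6523 bases part them, with 0 coding genes between. Cd163 (ENSMUSG00000008845) lies further along at chr6:124304656-124330527 on the plus strand. Marco (ENSMUSG00000026390) lies at chr1:120474538-120505024 on the minus strand, Msr1 (ENSMUSG00000025044) at chr8:39581685-39642673 on the minus strand, Mrc1 (ENSMUSG00000026712) at chr2:14229392-14332057 on the plus strand, Cd36 (ENSMUSG00000002944) at chr5:17781690-17888801 on the minus strand and Stab1 (ENSMUSG00000042286) at chr14:31139013-31168641 on the minus strand. All 9 are protein-coding. No other annotated gene overlaps 7 of them, while the microRNA gene Mir511 lies within Mrc1 on the same strand and Nt5dc2 overlaps Stab1 on the other strand.

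The 250 bases before the start of Clec4e, Marco and Clec4d are shown. Clec4e and Marco were chosen because, by value, they had the same order of levels at both ends of the 9 libraries. Clec4d was chosen because it is the close neighbour of Clec4e and did not share that order. The sequences are from RefSeq (GRCm38.p6), on the strand of the gene, and end at the base before the start. Capitals mark matches, on either strand, to 6 short motifs, and no match overlapped another in these windows. The E-box that clock factors bind was searched as CACGTG. The AP-1 motif of stress and activation signals was searched as TGANTCA. The C/EBP motif of myeloid genes was searched as TTGCNNAA. The PU.1 motif of macrophage genes was searched as GAGGAAG. The TATA box near which transcription starts was searched as TATAAA. The NF-kB motif read GGGTCTTTCC where it matched, with the fourth and the fifth base free in the search.
Clec4e, chr6:123289872-123290121, minus strand: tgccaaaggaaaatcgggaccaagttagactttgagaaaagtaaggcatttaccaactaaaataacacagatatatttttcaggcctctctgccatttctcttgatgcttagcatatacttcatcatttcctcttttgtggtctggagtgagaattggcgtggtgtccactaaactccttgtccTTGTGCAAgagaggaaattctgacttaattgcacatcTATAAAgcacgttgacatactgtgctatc
Clec4d, chr6:123261857-123262106, plus strand: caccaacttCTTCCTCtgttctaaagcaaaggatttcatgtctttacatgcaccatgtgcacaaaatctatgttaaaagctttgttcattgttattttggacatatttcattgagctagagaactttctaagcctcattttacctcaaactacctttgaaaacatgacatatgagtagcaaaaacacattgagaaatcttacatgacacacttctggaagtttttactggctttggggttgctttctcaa
Marco, chr1:120505025-120505274, minus strand: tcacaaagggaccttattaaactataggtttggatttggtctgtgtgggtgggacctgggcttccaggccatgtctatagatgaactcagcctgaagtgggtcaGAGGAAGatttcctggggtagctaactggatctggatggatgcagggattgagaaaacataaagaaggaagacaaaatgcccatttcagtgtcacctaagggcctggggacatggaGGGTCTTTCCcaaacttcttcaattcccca
The Clec4e window held a TATA box starting 29 bases and a C/EBP match starting 66 bases before the start. The Marco window held an NF-kB match at 30 bases and a PU.1 match at 146 bases. The Clec4d window held 1 PU.1 match, at 241 bases. Among 32851 promoter windows of this length, 12.4% held the TATA letters, 9.56% the C/EBP letters, 1.41% the NF-kB letters and 10.6% the PU.1 letters. The E-box letters were in 6.02% and the AP-1 letters in 6.75% of windows and in 0 of the 7 windows of members that the table holds. A match is a run of letters, and whether a factor binds there was not measured.

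Pooled over all 9 libraries, transcripts of 7 of the 9 genes were found mostly in macrophage-like cells. The share of a gene's UMI that lay in these cells was 96.5% for Clec4e, 92.8% for Clec4d, 93.3% for Clec4n, 95.8% for Marco, 90.9% for Msr1, 93.6% for Mrc1 and 92.5% for Stab1. Most of the rest lay in clusters left unnamed, chiefly a cluster of 614 cells that carried macrophage genes and in which 72% of barcodes were marked as doublets. Per1-/- on day 7 gave 978 of the 1219 Clec4e UMI and 1523 of the 2156 Marco UMI in macrophage-like cells, so these pooled shares chiefly describe that library. On day 10 macrophage-like cells held 3 of 7 Clec4e UMI and 28 of 54 Marco UMI in Per2-/-. In WT on day 10 they held 20 of 27 and 39 of 68. The level of Mrc1 was 1633 CPM in macrophage-like cells and 2.24 CPM in fibroblast-like cells, where 4.87% of cells held a UMI of it at about the same median depth, 21763 UMI a cell against 21917. For Clec4e the levels were 7.98 and 0.00756 CPM, with a UMI in 5.09% of macrophage-like and 0.0187% of fibroblast-like cells.

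Cd36 and Cd163 were the exceptions. Cd36 was at 276 CPM in macrophage-like cells and at 1212 CPM in 240 adipocyte-like cells, of which 83.8% held a UMI, and 67.9% of its UMI lay in macrophage-like cells. Of those 240 cells, 73, 89 and 51 came from WT, Per1-/- and Per2-/- on day 10, and their Cd36 levels there were 1531, 1506 and 797 CPM. Adipocyte markers summed to at most 3.33 CPM in any macrophage-like sum. Cd163 was close to absent, with 40 UMI in all cells and 4 in macrophage-like cells, all of the latter in Per1-/- on day 10. A count of 0 allows up to 0.0948 CPM of Cd163 in Per1-/- on day 7 and up to 0.805 CPM in WT on day 4, the deepest and the shallowest sums.

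**Figure D1:**
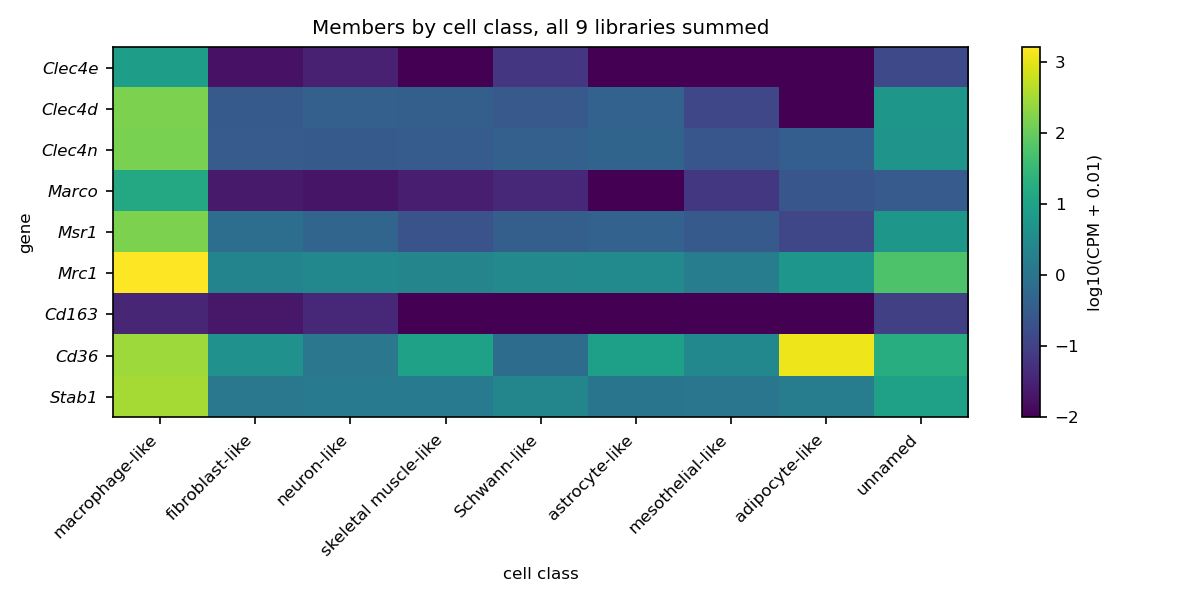
Colours give log10(CPM + 0.01) of the 9 genes in each cell class, with the cells of all 9 libraries summed. Every gene except Cd163 was high in macrophage-like cells, from 7.98 CPM for Clec4e to 1633 CPM for Mrc1, and Cd36 was also high, at 1212 CPM, in adipocyte-like cells.

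Differences shared by the days were tested across all 12662 genes that passed the filter on low counts, with day and genotype as factors. With 1 library per genotype and day, the days served as repeats of a genotype and the genotypes as repeats of a day, and p-values measure the spread between these libraries. In this model a difference that is large on 1 day only counts as spread. The filter kept 8 members and left out Cd163. In edgeR's quasi-likelihood test with Benjamini-Hochberg adjustment, 0 of the 8 members passed 0.05 for Per1-/- against WT and 0 for Per1-/- against Per2-/-, where 0.0079% of all genes passed in each, 0 for Per2-/- against WT (0% of all genes), 0 for day 7 against day 4 (0.521%) and 0 for day 10 against day 7 (1.07%). At an unadjusted p under 0.05 there were 1, 3, 2, 3 and 0 members in these comparisons, beside 7.13%, 16.1%, 16.2%, 20.5% and 8.55% of all genes. DESeq2 called 0, 0, 2, 1 and 0 members, beside 0.466%, 1.39%, 1.34%, 4.25% and 1.35% of all genes. By limma-voom 0 members passed in each, beside 0.0316%, 0.0158%, 0%, 1.03% and 0.892%. Without a filter on low counts 0, 1, 2, 1 and 0 members passed, beside 0.281%, 2.09%, 1.38%, 3.17% and 1.02% of 19600 genes. When Per2-/- on day 4 was left out, 0, 4, 3, 0 and 1 members passed, beside 0.0315%, 14.2%, 10.3%, 1.8% and 1.79% of all genes. The levels below are therefore given library by library, and no ratio within a day was tested.

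**Figure D2:**
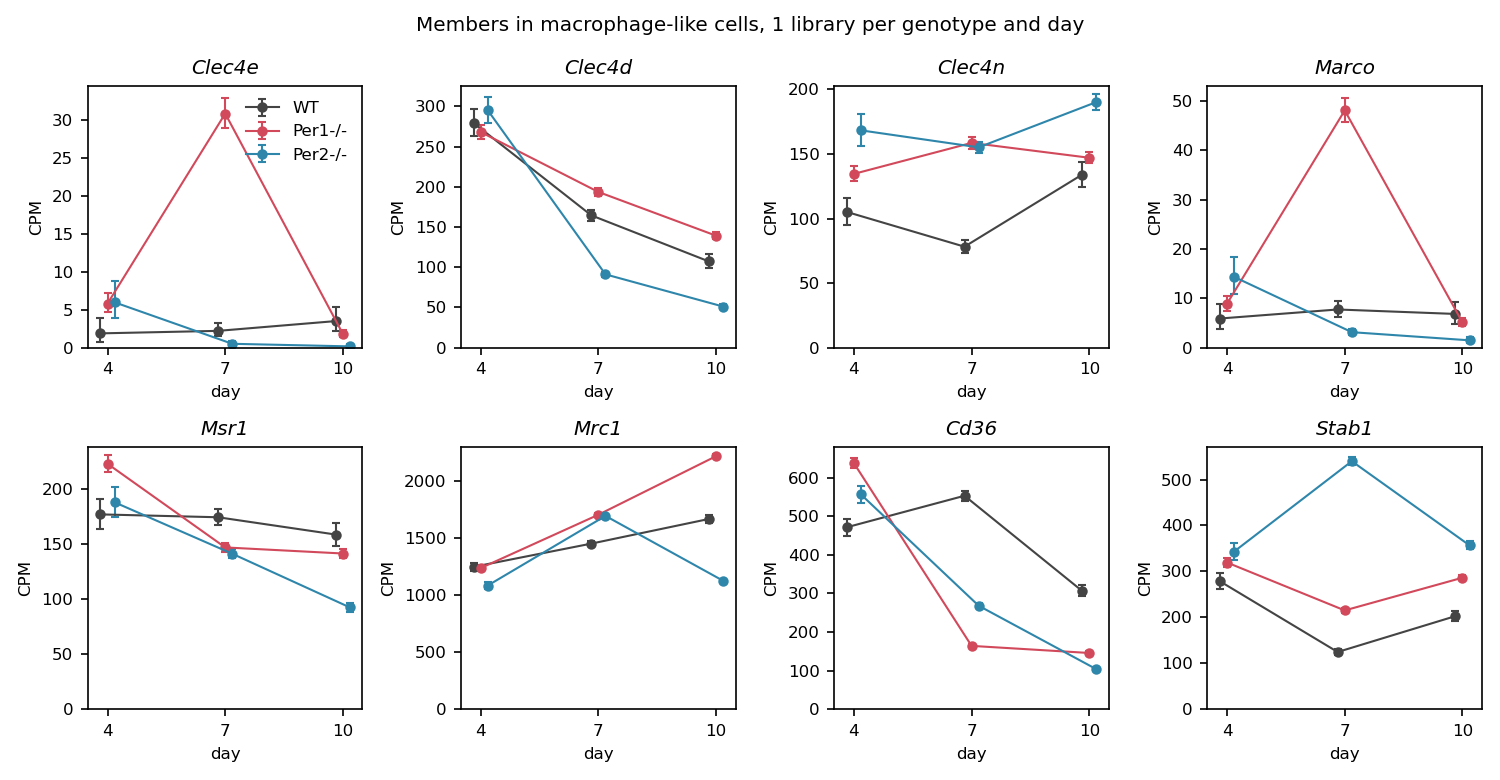
Points give CPM in macrophage-like cells of each library against the day, with 95% Poisson intervals for counting error, and lines join the libraries of a genotype. Clec4e and Marco stood out in Per1-/- on day 7 (30.9 and 48.1 CPM), Stab1 in Per2-/- on day 7 (540 CPM), and Cd36 was higher in WT than in both mutants on days 7 and 10.

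Clec4e, which encodes the inducible glycolipid receptor Mincle, had the widest range. Its level on day 4 was 1.88 CPM in WT, 5.81 CPM in Per1-/- and 5.98 CPM in Per2-/-. On day 7 it was 2.21 CPM in WT, 30.9 CPM in Per1-/- and 0.499 CPM in Per2-/-. On day 10 it was 3.50 CPM in WT, 1.80 CPM in Per1-/- and 0.158 CPM in Per2-/-, the last resting on 3 UMI. The library of Per1-/- on day 7 lay far above all others, and the 3 WT libraries did not differ from each other beyond counting error. The ratio of Per1-/- to WT was 3.10 (1.44 to 7.92) on day 4, or 1.78 without cells of at least 5 UMI of the gene, and it was 14.0 (9.62 to 21.2) on day 7. By day 10 this ratio was 0.513 (0.303 to 0.904), but 0.875 with macrophages taken by marker count and 1.04 without cells of at least 5 UMI. In cells with at most 1 UMI of cell cycle genes the ratio was 0.215 on day 4, 43.1 on day 7 and 0.271 on day 10. The day 4 direction turned there, where only 45 WT and 83 Per1-/- cells were left. In the macrophage-like clusters other than the cycling one the day 4 ratio was 2.61, with 6 UMI in WT. The ratio of Per2-/- to WT was 3.18 (1.34 to 8.72), 0.226 (0.112 to 0.438) and 0.0450 (0.00857 to 0.152) on days 4, 7 and 10. Without cells of at least 5 UMI these were 1.79, 0.420 and 0.128, in the cells low in cell cycle genes 0.662, 0.0699 and 0.0286, and by marker count 0.0880 on day 10. In the clusters other than the cycling one the day 4 ratio of Per2-/- to WT was 3.75. In the joint fit the log2 fold for Per1-/- against WT was 2.02 ± 1.16 (SE, adjusted p = 0.757, edgeR), and -0.21 without Per1-/- on day 7. Against Per2-/- it was 3.26 ± 1.23 (adjusted p = 0.258, edgeR). With each library left out in turn this ran from 1.16 to 5.36, with an edgeR adjusted p from 0.00795 to 0.839. It was highest without Per2-/- on day 4, where 14.2% of all genes passed.

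Clec4d, the partner receptor MCL, gave a different picture from its neighbour. Its level on day 4 was 279 CPM in WT, 268 CPM in Per1-/- and 295 CPM in Per2-/-. On day 7 it was 165, 194 and 91.1 CPM in the same order, and on day 10 it was 107, 139 and 51.0 CPM. The 3 genotypes were close on day 4, where Per1-/- and Per2-/- each lay within counting error of WT, and each genotype was lower on each later day. Per2-/- was lowest on both later days, at 0.554 (0.523 to 0.587) and 0.476 (0.430 to 0.528) of the WT level, while Per1-/- was at 1.18 (1.12 to 1.24) and 1.30 (1.19 to 1.42). Day 7 against day 4 gave a fitted log2 fold of -0.97 ± 0.26 (adjusted p = 0.109, edgeR), and the adjusted p was 0.00527 in DESeq2. Between the mutants, Per1-/- over Per2-/-, it was 0.78 ± 0.26 (adjusted p = 0.226, edgeR). For Per2-/- against WT it was -0.50 ± 0.26 (adjusted p = 0.371, edgeR). With each library left out in turn, the first ran from 0.51 to 1.24 (edgeR adjusted p 0.00156 to 0.841). The second ran from -0.99 to -0.26 (0.0077 to 0.833). The lowest adjusted p of each came without Per2-/- on day 4, where 14.2% and 10.3% of all genes passed. The fitted log2 fold for Per1-/- against WT went from 0.28 to -0.06 when the level of Y-linked genes entered the fit.

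Clec4n, the mannan receptor Dectin-2, was higher in both mutants than in WT on all 3 days. On day 4 Clec4n was at 105 CPM in WT, 135 CPM in Per1-/- and 168 CPM in Per2-/-. Day 7 levels were 78.2, 159 and 155 CPM, and on day 10 it was 134, 147 and 190 CPM. Each mutant library lay above the WT library of its day, narrowly so for Per1-/- on day 10, where the counting intervals of the levels overlapped, and WT on day 10 was level with Per1-/- on day 4. Ratios of Per1-/- to WT were 1.28 (1.15 to 1.43), 2.03 (1.89 to 2.17) and 1.10 (1.02 to 1.19), and ratios of Per2-/- to WT were 1.60 (1.41 to 1.82), 1.98 (1.85 to 2.13) and 1.42 (1.31 to 1.54). In cells with at most 1 UMI of cell cycle genes the day 10 ratio of Per1-/- to WT was 0.979. In the joint fit the log2 fold was 0.57 ± 0.15 for Per1-/- against WT (adjusted p = 0.472, edgeR) and 0.79 ± 0.16 for Per2-/- against WT (adjusted p = 0.187, edgeR). The second passed in DESeq2 (adjusted p = 0.0026), without a filter on low counts (adjusted p = 0.0149) and without Per2-/- on day 4 (adjusted p = 0.0342), and over all alternatives its adjusted p ran from 0.0026 to 0.741.

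Marco, a class A scavenger receptor of inflammatory and alveolar macrophages, had the same libraries at its extremes as Clec4e. On day 4 Marco was at 5.90 CPM in WT, 8.92 CPM in Per1-/- and 14.3 CPM in Per2-/-. Day 7 levels were 7.73, 48.1 and 3.13 CPM, and on day 10 it was 6.83, 5.13 and 1.47 CPM. For both genes Per1-/- on day 7 was highest, Per2-/- on day 4 came next, and Per2-/- on days 7 and 10 were the lowest. For Clec4e, Per2-/- on day 4 lay within counting error of Per1-/- on day 4. Ratios of Per1-/- to WT were 1.51 (0.958 to 2.49), 6.22 (5.07 to 7.71) and 0.751 (0.526 to 1.10). Ratios of Per2-/- to WT were 2.43 (1.47 to 4.16), 0.404 (0.302 to 0.542) and 0.216 (0.128 to 0.359). The day 10 value for Per2-/- was 0.459 with macrophages taken by marker count. In cells low in cell cycle genes the day 4 ratios were 3.58 for Per1-/- and 5.08 for Per2-/-, and the day 10 ratio for Per1-/- was 1.02. In the clusters other than the cycling one these were 1.83, 2.69 and 0.760. Without cells of at least 5 UMI the day 4 ratio for Per1-/- was 0.7999. The fitted log2 fold for Per1-/- against WT was 1.33 ± 0.84 (adjusted p = 0.792, edgeR), and -0.17 without Per1-/- on day 7. Against Per2-/- it was 1.89 ± 0.86 (adjusted p = 0.323, edgeR). With each library left out in turn this ran from 0.53 to 3.18, with an edgeR adjusted p from 0.00982 to 0.839. It was highest without Per2-/- on day 4, where 14.2% of all genes passed.

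Msr1, the class A receptor SR-A that binds modified lipoproteins, had levels within 2.41-fold of each other. Msr1 was on day 4 at 177 CPM in WT, 223 CPM in Per1-/- and 188 CPM in Per2-/-. Day 7 levels were 174, 147 and 141 CPM, and on day 10 it was 158, 141 and 92.2 CPM. Per1-/- lay above WT on day 4 and below it on the later days, although its day 10 ratio to WT was 1.40 in place of 0.891 with macrophages taken by marker count. Per2-/- on day 10 was lowest of all, at 0.582 (0.537 to 0.632) of WT. The fitted log2 folds of Msr1 lay between -0.31 and 0.30, and the lowest adjusted p over all comparisons and alternatives was 0.0842.

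Mrc1, the mannose receptor, had levels within 2.05-fold of each other in all 9 libraries. They were 1245, 1234 and 1081 CPM in WT, Per1-/- and Per2-/- on day 4, 1448, 1701 and 1691 CPM on day 7, and 1664, 2214 and 1123 CPM on day 10. With macrophages taken by cluster, which left 229 cells in WT on day 10, WT and Per1-/- were each higher on each later day. Per2-/- on day 10 was back near its level of day 4. On day 10 Per1-/- was at 1.33 (1.30 to 1.36) and Per2-/- at 0.675 (0.658 to 0.691) of WT, or at 2.03 and 0.909 with macrophages taken instead as cells with UMI of at least 6 of the 16 markers. Day 7 against day 4 gave a fitted log2 fold of 0.49 ± 0.17 (adjusted p = 0.169, edgeR). That for day 10 against day 7 was 0.05, and -0.20 with macrophages taken by these markers. For Per1-/- against WT it was 0.28 ± 0.17 (adjusted p = 0.772), and -0.12 with the Y-linked genes in the fit.

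Cd36, the fatty acid and oxidised lipoprotein receptor, was lower in both mutants than in WT on days 7 and 10 but not on day 4. Its level on day 4 was 472 CPM in WT, 638 CPM in Per1-/- and 557 CPM in Per2-/-. On day 7 it was 553, 164 and 268 CPM, and on day 10 it was 306, 146 and 103 CPM. The 4 mutant libraries of the later days lay below all 5 other libraries. Ratios of Per1-/- to WT were 1.35 (1.29 to 1.42), 0.296 (0.286 to 0.307) and 0.475 (0.449 to 0.502), and ratios of Per2-/- to WT were 1.18 (1.11 to 1.26), 0.485 (0.469 to 0.5004) and 0.338 (0.317 to 0.360). The fitted log2 fold was -0.78 ± 0.36 for Per1-/- against WT (adjusted p = 0.706, edgeR) and -0.79 ± 0.36 for Per2-/- against WT (adjusted p = 0.315, edgeR). With macrophages taken by marker count the day 10 ratios were 0.811 for Per1-/- and 0.512 for Per2-/-. On day 4 the ratio of Per1-/- to WT was 0.987 in cells low in cell cycle genes, but 1.47 in the clusters other than the cycling one. The fitted fold for Per1-/- became 0.51 with the Y-linked genes in the fit, and as both Per1-/- libraries of the later days were those rich in Y-linked RNA, the part of sex or preparation in it was not tested. Day 7 against day 4 gave -0.93 ± 0.36 (adjusted p = 0.195).

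Stab1, an endocytic receptor of resident-type macrophages, was ordered WT, Per1-/-, Per2-/- from low to high on all 3 days. Its level on day 4 was 278, 319 and 343 CPM in that order. On day 7 it was 124, 215 and 540 CPM, and on day 10 it was 203, 286 and 357 CPM. The ratios to WT were largest for Per2-/- on day 7, where Per2-/- was at 4.34 (4.12 to 4.58) and Per1-/- at 1.73 (1.64 to 1.83) of WT. On days 4 and 10 the ratio of Per2-/- to WT was 1.23 (1.14 to 1.34) and 1.76 (1.65 to 1.88). On day 4, 45 WT, 83 Per1-/- and 82 Per2-/- cells were low in cell cycle genes. In these the ratios to WT were 2.04 for Per1-/- and 2.25 for Per2-/-. In the clusters other than the cycling one the day 4 ratios were 1.16 and 1.32. Fitted over the days, the log2 fold was 1.17 ± 0.28 for Per2-/- against WT (adjusted p = 0.193, edgeR), with an adjusted p from 0.00294 in DESeq2 to 0.741 over the alternatives. It was 0.53 ± 0.27 for Per1-/- against WT (adjusted p = 0.745) and -0.64 ± 0.28 for Per1-/- against Per2-/- (adjusted p = 0.301). Without Per2-/- on day 4, Stab1 passed for Per2-/- against WT (1.45, adjusted p = 0.0119) and for Per1-/- against Per2-/- (-0.89, adjusted p = 0.0387). In that fit 10.3% and 14.2% of all genes passed. With other libraries left out the edgeR adjusted p reached 0.583 and 0.841.

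**Figure D3:**
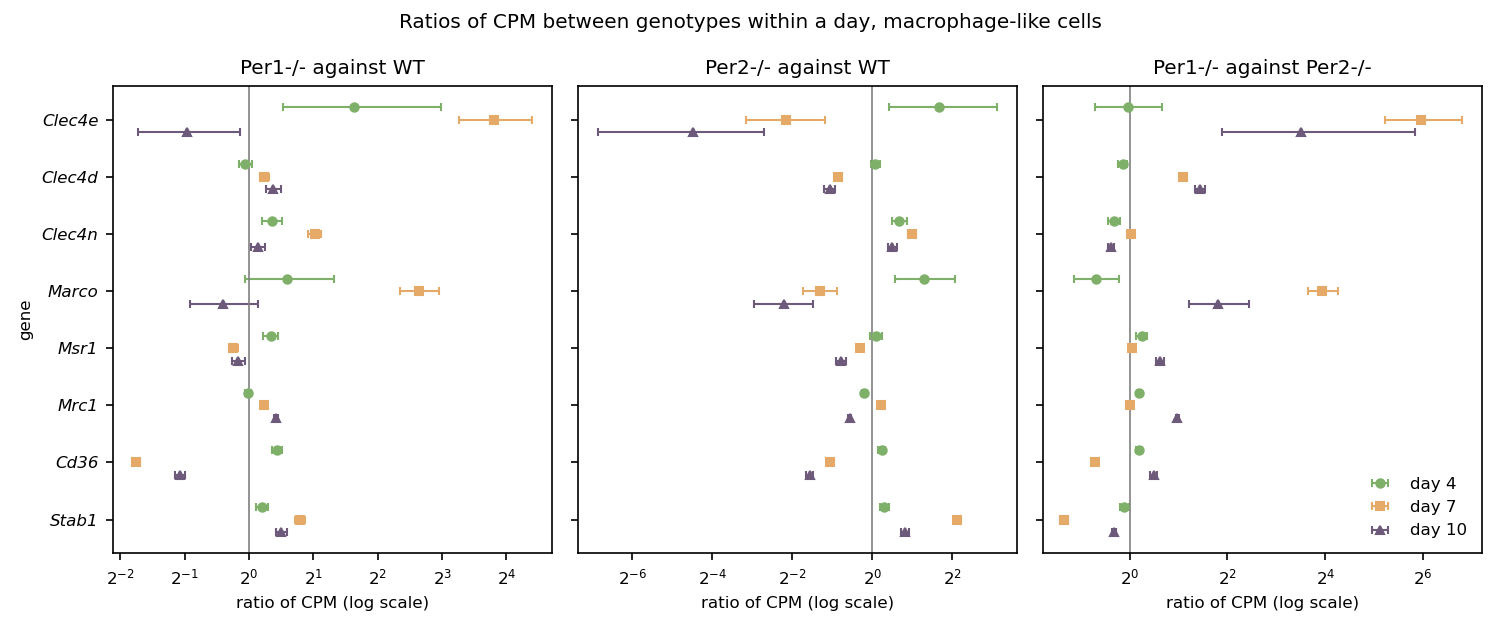
Points give the ratio of CPM between 2 genotypes on the same day in macrophage-like cells on a log scale, with 95% intervals for counting error, and the grey line marks a ratio of 1. Clec4n and Stab1 were above 1 on all 3 days for both mutants against WT. Clec4e, Clec4d, Marco, Cd36, Msr1 and Mrc1 lay beyond counting error on different sides of 1 on different days in at least 1 comparison.

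Most UMI of Clec4e and Marco in Per1-/- on day 7 were held by few cells. Of its 1391 macrophage-like cells, 46 held at least 5 UMI of Clec4e, and these cells (3.31%) carried 710 of the 978 Clec4e UMI (72.6%). Likewise 50 cells held at least 5 UMI of Marco and carried 86.1% of its 1523 UMI. The highest counts in a single cell were 199 UMI of Clec4e and 249 UMI of Marco. In the other 8 libraries together, 11 of 5051 cells reached 5 UMI of Clec4e and 28 reached 5 UMI of Marco, with 0 cells rich in both against 12 in Per1-/- on day 7. The limit of 5 UMI was chosen after the values were seen.

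Cells with fewer UMI followed another pattern for each gene. Cells with 1 to 4 UMI of Clec4e made up 11.3% of Per1-/- cells on day 7, against 2.49% in WT and 0.754% in Per2-/-. For Marco the shares of cells with 1 to 4 UMI were 9.27% in Per1-/-, 10.2% in WT and 3.86% in Per2-/-. Without the cells that held at least 5 UMI of the gene, in every library, the day 7 ratio of Per1-/- to WT was 7.44 for Clec4e and 1.22 for Marco. The cell with the most Clec4e UMI was also the cell with the most Marco UMI. Without that cell the library's levels were 24.7 CPM for Clec4e and 40.3 CPM for Marco.

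**Figure D4:**
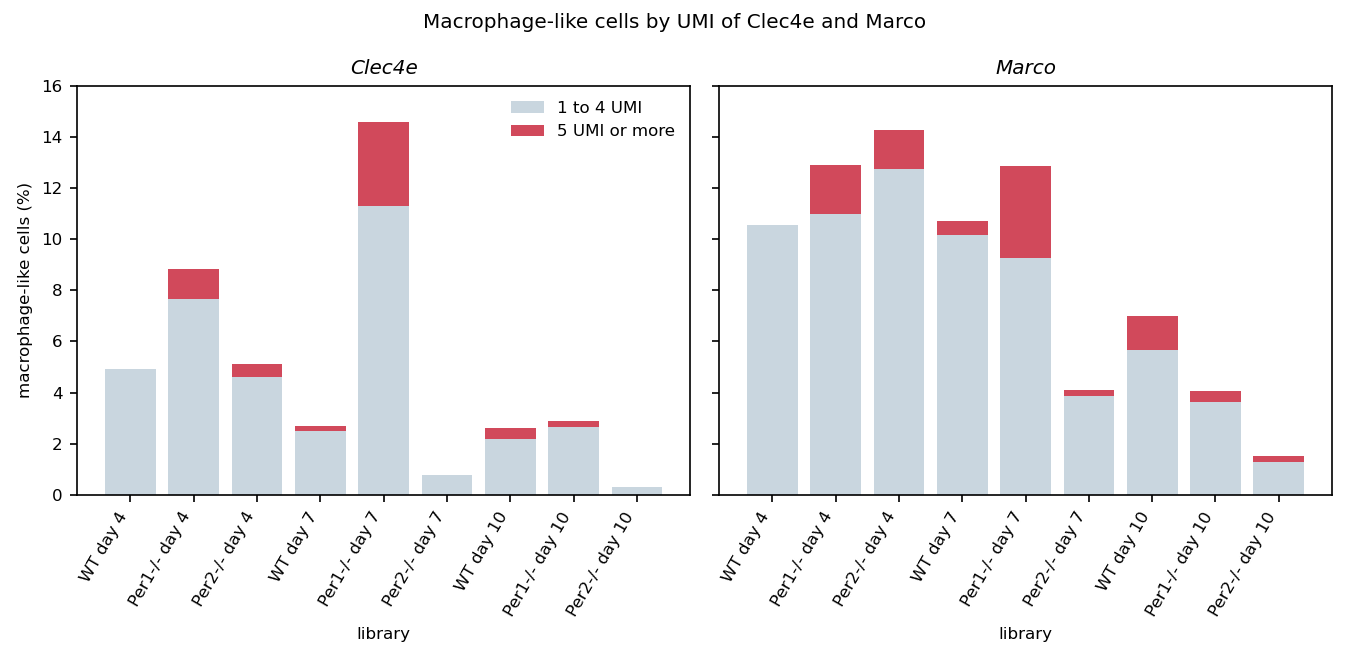
Bars give the percentage of macrophage-like cells in each library that held 1 to 4 UMI (pale) or at least 5 UMI (red) of Clec4e and of Marco. The red part was largest in Per1-/- on day 7, at 3.31% of cells for Clec4e and 3.59% for Marco.

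The Clec4e-rich cells of Per1-/- on day 7 were compared with the other 1345 cells of that library as a description, since they were picked by a measured value. They were about as deep (median 24434 UMI against 21097), and 8 of the 46 lay in the cycling cluster. Their neighbours at the Clec4e locus were also higher, with Clec4d at 396 against 185 CPM and Clec4n at 359 against 150 CPM. Marco was at 539 against 27.4 CPM, with a UMI in 54.3% of the rich and 11.4% of the other cells. Stab1 was lower, at 94.4 against 220 CPM, and Mrc1 was at 1263 against 1720 CPM, while Msr1 (153 against 146 CPM) and Cd36 (142 against 165 CPM) were close. Of 23 genes of an inflammatory response list with enough UMI, 8 were at least 2-fold higher and 1 was at least 2-fold lower in these cells, beside 2.93% and 8.51% of the 11574 genes with as many UMI. Such a count uses UMI summed over the 46 cells, so a gene held by few of them can reach 2-fold. The genes named next were chosen after their values were seen. Sod2, the mitochondrial superoxide dismutase that NF-kB induces, was at 448 against 123 CPM and was detected in all 46 cells. Gpr84, a fatty acid receptor of activated macrophages, was at 78.8 against 15.6 CPM, with a UMI in 58.7% against 19.7% of cells. The chemokine Cxcl2 was at 81.9 against 11.2 CPM in 26.1% against 4.46% of cells, and Apoe was lower, at 654 against 2571 CPM. Tnf was at 60.8 against 30.8 CPM. A single cell gave 36.0% of the Marco, 37.6% of the Gpr84 and 30.5% of the Cxcl2 UMI in the rich cells, but 13.1% of the Sod2 UMI. Ccl5 also differed widely (266 against 1.51 CPM), but only 2 of the 46 cells held a UMI of it.

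The Marco-rich cells of the same library were compared in the same way. They were deeper than the other cells, with a median of 27969 UMI against 21084. Clec4e was at 246 against 20.7 CPM in them, with 56.7% of its UMI there from a single cell, Clec4n at 378 against 148 CPM and Clec4d at 344 against 187 CPM. Stab1 was at 215 CPM in both, unlike in the Clec4e-rich cells. Of the same inflammatory response list, 9 of 23 genes were at least 2-fold higher and 1 was at least 2-fold lower, beside 2.84% and 7.7% of all such genes.

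Rich cells of the other 8 libraries were few and went otherwise in part. Of the 11 Clec4e-rich cells, 5 came from Per1-/- and 1 from Per2-/- on day 4, when Clec4d was highest over all macrophage-like cells, so the pooled values mix days. In these 11 cells Marco was at 5.24 CPM on 2 UMI, against 5.23 CPM in the other cells, while Clec4d (521 against 139 CPM) and Sod2 (262 against 84.6 CPM) were higher by value. Of the inflammatory response list, 11 of 23 genes were at least 2-fold higher and 7 at least 2-fold lower in them, beside 8.57% and 31% of all genes. In the 28 Marco-rich cells 1 gene was higher and 7 were lower, beside 5.81% and 20.9%, and Clec4e was at 2.31 against 1.99 CPM.

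Proliferating macrophages carried another balance of the receptors. A macrophage-like cluster was set apart by cell cycle genes and held from 25 cells in WT on day 4 to 166 cells in Per1-/- on day 7. The receptors themselves were kept out of clustering. Cells of the cycling cluster held more UMI, with a median of 31605.5 against 20575 in Per1-/- on day 7. A lower CPM in it therefore need not mean fewer UMI of a gene in each cell. Clec4d was higher in the cycling cluster than in the other macrophage-like cells in 9 of 9 libraries, with a median ratio of 1.37 (range 1.19 to 3.29). Clec4n was lower in 9 of 9 libraries, with a median ratio of 0.389 (0.305 to 0.828). Mrc1 (0.702, range 0.622 to 0.847) and Stab1 (0.668, range 0.487 to 0.839) were lower in 9 of 9 as well. Msr1 was higher in 6 and lower in 3 libraries and Cd36 higher in 5 and lower in 4. These are cells of the same libraries, so no test was made.

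**Figure D5:**
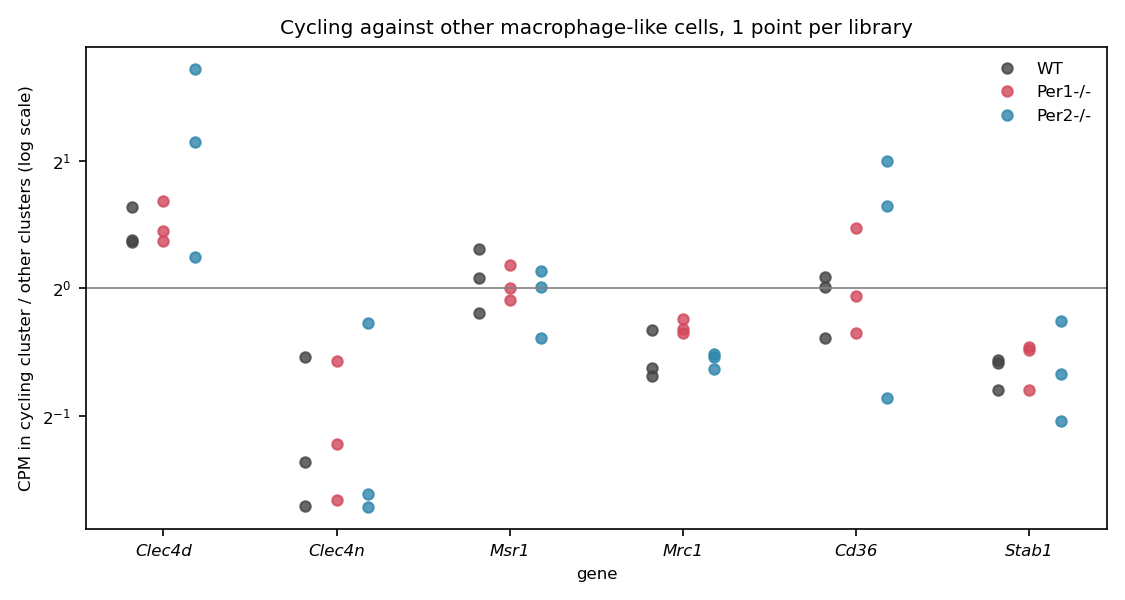
Each point is 1 library and gives the CPM of a gene in the cycling macrophage-like cluster divided by that in the other macrophage-like cells, on a log scale. Clec4d lay above 1 and Clec4n, Mrc1 and Stab1 below 1 in all 9 libraries.

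The share of cycling cells differed between libraries, and 8 cell cycle genes summed from 194 CPM in Per2-/- on day 10 to 1247 CPM in Per1-/- on day 4. In the non-cycling clusters alone, the ratio of Per2-/- to WT on day 7 was 0.518 for Clec4d, 1.84 for Clec4n, 0.455 for Cd36 and 4.17 for Stab1, and that of Per1-/- to WT was 1.19, 1.90, 0.279 and 1.71. For these 4 genes the ratios were near those over all macrophage-like cells. On day 7 the non-cycling clusters held 79.5%, 88.1% and 92.1% of these cells in WT, Per1-/- and Per2-/-, so the ratios could hardly differ. In the cycling cluster the day 7 ratio of Per2-/- to WT was 0.893 for Clec4d, 1.44 for Clec4n, 0.707 for Cd36 and 3.92 for Stab1. That of Per1-/- to WT was 1.26, 2.10, 0.385 and 1.47 there. For Clec4e the day 7 ratio of Per1-/- to WT was 30.4 in the non-cycling clusters, 4.51 in the cycling cluster and 14.0 over all. The WT side rested on 10 UMI in the non-cycling and 18 UMI in the cycling clusters. A single WT cell held 13 UMI, so this difference may rest on 1 cell. In the cycling cluster on day 10, the ratio of Per2-/- to WT was 1.14 for Clec4d, against 0.452 in the other cells, and rested on 33 and 29 cells.

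Levels over whole cultures hold both the number of macrophages and the level in each. Macrophage-like cells made up 6.57%, 23.0% and 11.9% of cells in WT, Per1-/- and Per2-/- on day 7, and Mrc1 over all kept cells was at 108, 382 and 193 CPM. Over all cells of these cultures, Clec4e was at 0.155, 6.78 and 0.0590 CPM and Marco at 0.549, 10.4 and 0.354 CPM. Cd36 over all cells was at 43.1, 42.6 and 35.5 CPM on day 7, and Per1-/- thus had more macrophages with a lower Cd36 level in them. On day 10, 9507 of 14425 Mrc1 UMI of WT lay in macrophage-like cells, the lowest share among the 9 libraries. With macrophages taken instead as cells with UMI of at least 6 of the 16 markers, WT on day 10 had 1115 in place of 229 cells, and the day 10 ratio of Per1-/- to WT was 2.18 in place of 1.41 for Stab1. The day 7 ratio of Per2-/- to WT for Mrc1 was then 0.956 in place of 1.17.

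Other genes of these pathways showed few calls in macrophage-like cells. Of 25 other C-type lectin receptors, 10 were tested, and 1 passed in the 5 comparisons. This was Clec2d, the ligand of an inhibitory natural killer cell receptor, which rose by 0.73 ± 0.09 on the log2 scale on day 7 against day 4 (adjusted p = 0.0307, edgeR), where 0.521% of all genes passed, from 93.3, 104 and 106 CPM in WT, Per1-/- and Per2-/- to 136, 169 and 184 CPM. At an unadjusted edgeR p under 0.05, 5 of the 10 were higher and 1 lower for Per1-/- against WT, beside 7.13% of all genes. For Per2-/- against WT 4 were higher and 2 lower (16.2%), and between the mutants 1 and 2 (16.1%). Day 7 against day 4 had 6 higher and 0 lower (20.5%), and day 10 against day 7 had 3 and 2 (8.55%). Of 20 genes of the signalling route below these receptors, all 20 were tested and 0 passed in any of the 5 comparisons by edgeR, with from 0 to 2 at an unadjusted p under 0.05, where all genes had from 7.13% to 20.5%. Its adaptor Fcer1g, through which Clec4e and Clec4n products signal, had a log2 fold of 0.21 ± 0.11 for Per1-/- against WT (adjusted p = 0.745). Of 27 other scavenger receptors, 22 were tested and 0 passed, with 9 at an unadjusted p under 0.05 for Per1-/- against Per2-/-, 2 higher and 7 lower, beside 16.1% of all genes. Among them Trem2, a lipid-sensing receptor, had log2 folds of 0.31 ± 0.10 and 0.33 ± 0.10 for Per1-/- and Per2-/- against WT (adjusted p = 0.599 and 0.207, edgeR). The more abundant Lgals3 had -0.06 ± 0.26 and -0.57 ± 0.27, and Cd68 had 0.11 ± 0.12 and 0.05 ± 0.12.

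The median log2 fold of the 8 members was 0.41 for Per1-/- against WT and -0.39 for Per2-/- against WT, beside medians of 0.00 and 0.02 over all genes tested. As the members were chosen with earlier results of these data known, these medians are a description. For the 20 signalling genes the medians were -0.02 and -0.02, and for the 22 other scavenger receptors -0.08 and 0.15. Of the inflammatory response list, 23 of 29 genes were tested, with medians of 0.39 and 0.13, and 0 passed between genotypes by edgeR, with 5 higher and 0 lower at an unadjusted p under 0.05 for Per1-/- against WT, beside 7.13% of all genes. The chemokine Cxcl1 of this list passed for day 10 against day 7 with a log2 fold of -4.72 ± 0.84 (adjusted p = 0.0421, beside 1.07% of all genes called), at a level of at most 2.18 CPM in any library. Of 22 genes of resident-type and alternative activation, 17 were tested. Pf4 rose by 0.96 ± 0.12 and Hmox1, which breaks down haem, fell by 0.77 ± 0.11 on day 7 against day 4 (adjusted p = 0.0307 and 0.0402, beside 0.521% of all genes called), and the chemokine Ccl8 rose by 1.98 ± 0.36 on day 10 against day 7 (adjusted p = 0.0462, beside 1.07%). Of 15 genes of PPARG and lipid handling, 14 were tested and Pltp, the phospholipid transfer protein, rose by 0.9996 ± 0.09 on day 7 against day 4 (adjusted p = 0.0156, beside 0.521% of all genes called). Apoe, the lipoprotein ligand, had a log2 fold of -2.40 ± 0.61 for Per1-/- against Per2-/- (adjusted p = 0.179, edgeR). Fabp5 and Gpnmb of the same list went the other way, at 0.28 ± 0.15 and 0.38 ± 0.27 (adjusted p = 0.393 and 0.522, edgeR).

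The genes most like Clec4e, Marco and Mrc1 over the 9 macrophage-like sums were sought among 5869 genes with a mean of at least 20 CPM, by Pearson's r of log2(CPM + 1). For Clec4e they were Tnip1 (r = 0.952), Ncf4 (0.939), Cxcl16 (0.930), Tlr2 (0.905) and Marcksl1 (0.867). For Marco they were Ncf4 (0.953), Tnip1 (0.945), Tlr2 (0.906), Cxcl16 (0.898) and Cep162 (0.874), so that 4 genes were shared. Each of these was highest in Per1-/- on day 7, and Tlr2, for example, ranged from 48.9 to 123 CPM. Without the 2 libraries farthest from the median, r with Marco was 0.954 for Ncf4, 0.887 for Tnip1, 0.822 for Cxcl16, 0.511 for Cep162 and 0.360 for Tlr2. With Clec4e it was 0.903 for Ncf4, 0.879 for Tnip1, 0.874 for Cxcl16, 0.493 for Marcksl1 and 0.471 for Tlr2. For Mrc1 they were Clpx (r = 0.963), Acap2 (0.946), Stard4 (0.944), Wdr36 (0.943) and Slc38a7 (0.941), each highest in Per1-/- on day 10. The points share libraries and depth, and with 9 points and 5869 genes searched such values describe these sums only.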

How the data were processed

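The deposited values were UMI counts per gene and barcode, filtered matrices that the authors made with Cell Ranger. The file headers name version 4.0.0 for days 4 and 7 and 6.0.0 for day 10, and the submitters' processing notes name version 7.1 and mm10. The genes, lists and tests were chosen with earlier results of these data known.

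Barcodes under 3000 UMI or with over 20% of UMI from mitochondrial genes were dropped, and those with the highest Scrublet scores were left out as doublets (0.8% per 1000 barcodes). Cells were clustered without the receptors (scanpy 1.11.5, leidenalg 0.10.2, resolution 1) and named from marker lists. UMI of macrophage-like cells were summed per library and fitted with edgeR 4.0.16 (TMM, filterByExpr, quasi-likelihood test, two-sided, R 4.3.3), with Benjamini-Hochberg adjustment over all genes at 0.05. The procedure was tested on simulated counts, with no outcome given here, so no error rate is claimed for this fit. Poisson intervals for levels, Clopper-Pearson intervals for shares and conditional intervals for ratios are exact, at 95%, and cover counting error only. The limit that a count of 0 allows is 3 UMI per library.

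Library totals ran from 126625215 to 353198559 UMI. WT on day 10 was the shallowest per barcode, with a median of 3528 UMI and 55.0% of barcodes passing.

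The text names all members and, of each list, at most 3 called genes per comparison or, where none was called, genes among the 3 with the highest mean CPM. For likeness it names the 5 highest correlations among genes of at least 20 CPM. Alternatives were DESeq2 1.42.0, limma-voom (limma 3.58.1), RLE factors, no filter on low counts, a Y-linked covariate, other definitions of macrophages, doublets kept, non-cycling cells and each library left out. Leaving out cells of at least 5 UMI was added after the data were seen. Motif spellings were tightened after looser ones matched many promoters.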

Additional observations from a re-analysis of the deposited data

Results flagged for a closer look

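The ratio between 2 genotypes moved from one side of 1 to the other between days, with counting intervals that excluded 1 on both days and a quotient of at least 4, in 5 cases. With 1 library per genotype and day, none of these differences was tested.

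For Clec4e, the ratio of Per1-/- to WT was 14.0 on day 7 and 0.513 on day 10, a quotient of 27.3. The day 10 value was 0.875 with macrophages taken by marker count and 1.04 without cells of at least 5 UMI, so the move across 1 was lost in the latter. The ratio of Per2-/- to WT for Clec4e was 3.18 on day 4 and 0.0450 on day 10, a quotient of 70.7. In cells low in cell cycle genes the day 4 value was 0.662, and the move across 1 was lost. In the non-cycling clusters the values were 3.75 and 0.0439, so the move held there, with 6 UMI in WT on day 4. Without cells of at least 5 UMI the values were 1.79 and 0.128. For Marco, the ratio of Per1-/- to Per2-/- was 15.4 on day 7 and 0.621 on day 4, a quotient of 24.8. Without cells of at least 5 UMI the day 7 value was 2.87. The ratio of Per2-/- to WT for Marco was 2.43 on day 4 and 0.216 on day 10, a quotient of 11.3. The day 10 value was 0.459 by marker count. The day 4 value was 5.08 in cells low in cell cycle genes and 2.69 in the non-cycling clusters. For Cd36, the ratio of Per1-/- to WT was 1.35 on day 4 and 0.296 on day 7, a quotient of 4.57. In cells low in cell cycle genes the day 4 value was 0.987, and the move across 1 was lost. In the non-cycling clusters the values were 1.47 and 0.279, so the move held there. The Per1-/- libraries of days 4 and 7 also differed in X inactivation RNA, at 574 and 0.126 CPM, and its part in these ratios was not tested.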

How the results depend on the processing

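The number of members passing 0.05 was 0 in each comparison and stayed there in 77 repeats under the alternatives and moved in 8. Without a filter on low counts it was 1 when the mutants were compared (2.09% of all genes), 2 for Per2-/- against WT (1.38%) and 1 for day 7 against day 4 (3.17%), and in DESeq2 it was 2 for Per2-/- against WT (1.34%) and 1 for day 7 against day 4 (4.25%). Leaving out 1 library gave 0 to 4 when the mutants were compared, 0 to 3 for Per2-/- against WT and 0 to 1 for day 10 against day 7, each highest without Per2-/- on day 4, where 14.2%, 10.3% and 1.79% of all genes passed. Of the repeated log2 folds, 37 turned sign, 15 newly passed and 628 did neither. With the Y-linked covariate, Per1-/- against WT became -0.057 for Clec4d, -0.12 for Mrc1 and 0.51 for Cd36, and day 7 against day 4 became -0.050 for Clec4e. With macrophages taken by marker count, Clec4n became 0.016 for Per1-/- against Per2-/-, Clec4e -0.12 for day 7 against day 4, and Mrc1 -0.20 and Stab1 -0.088 for day 10 against day 7. This definition took 7957 cells, of them 1115 in WT on day 10 in place of 229. Cd36 for Per1-/- against Per2-/- became -0.0088 in limma-voom and -0.13 in non-cycling cells, and Clec4e for day 7 against day 4 became -0.40 in DESeq2.

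Leaving out 1 library turned the sign of some log2 folds. For Per1-/- against WT, Clec4e ran from -0.21 to 3.18, Marco from -0.17 to 2.02 and Msr1 from -0.14 to 0.16. For Per1-/- against Per2-/-, Cd36 ran from -0.36 to 0.36. For Per2-/- against WT, Clec4e ran from -3.19 to 0.45, Marco from -1.82 to 0.42 and Mrc1 from -0.29 to 0.10. For day 7 against day 4, Clec4e ran from -2.03 to 1.95, Clec4n from -0.28 to 0.13, Marco from -0.95 to 1.78 and Stab1 from -0.74 to 0.024. For day 10 against day 7, Clec4e ran from -3.46 to 0.21, Mrc1 from -0.17 to 0.26 and Stab1 from -0.14 to 0.62. The cause of these changes was not tested. Day was a term of the fit, so genotypes were compared within days, and the labels held no further replicate numbers to pair by. Few UMI limited the comparison of Cd163 in all libraries and of Clec4e in Per2-/- on day 10.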
